A study of Mus musculus and Homo sapiens with 11 samples.

Results

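The brain metastatic derivative of the mouse MMTV-ErbB2 line, called BrM, was represented by 3 of the 11 libraries of the series, and the data described here are those 3 libraries with replicate 1 set against replicates 2 and 3. Replicate 1 was singled out because earlier results of the same data had shown it standing apart, so it was chosen by its measured values, the log2(value + 1) differences over all genes. Every difference between it and the other 2 libraries is therefore given as a description of 1 library against 2, with no test. The members are the 13821 genes, of 24062 listed, whose scaled read count averaged at least 10 over the 6 mouse libraries.

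MMTV-ErbB2 is an established mouse mammary tumour line that models HER2-driven breast cancer, its ErbB2 oncogene being expressed from the MMTV promoter, which is active in mammary epithelium. The BrM group is a derivative of the line named as brain metastatic (the labels carry the tag 2a), and the parental line gave 3 further libraries, used here as reference values and in the filter. Both groups come from this model, were grown in 10% serum to 80% confluence and gave polyadenylated RNA. The labels name DMEM or RPMI as media and TruSeq RNA v2 or NEBNext Ultra as library kits and do not say which library had which. A difference of medium, kit or culture between replicate 1 and the other 2 therefore cannot be told apart from any other difference. The sample titles number replicates 1 and 2, and the column numbered 3 was tied to the group by its name alone. The labels do not say whether separate cultures gave the 3 libraries, so the spread between them may be technical. A further 5 human HCC1954 libraries were not analysed here.

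Several programmes known from epithelial tumour cells are described below. Proliferating cells express the genes of DNA replication and mitosis together, largely under E2F and the MuvB complexes, and lower them on leaving the cycle. Sterol and unsaturated fatty acid synthesis is driven by the SREBP factors, which are held back when membranes are rich in cholesterol. Mammary epithelium secretes antimicrobial and iron-binding proteins of the acute phase, such as lipocalin 2 and lactoferrin, through C/EBP and NF-kB factors, answers interferon through JAK kinases and STAT factors, and answers low oxygen through HIF factors and their feedback enzymes, the prolyl hydroxylases.

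Promoters of genes that differed strongly are shown because the groups below are named for such factors. The 250 bases before the RefSeq transcription start (GRCm38.p6) were searched on both strands for 1 or 2 short motifs per group, in up to 4 called genes per group with an entry and the largest difference. Printed are the matching promoters of the hypoxia, acute-phase, interferon and replication groups, with the matches in capitals. Nfkbia, of the NF-kB group, and Nupr1, of the ATF4 group, matched as well and are not printed. Egln3, a prolyl hydroxylase that marks HIF subunits for destruction, lies on the minus strand at chr12:54203875-54204124 and holds the hypoxia response element core ACGTG from position -229. Lcn2, the siderophore-binding lipocalin 2, lies on the minus strand at chr2:32387740-32387989 and holds the C/EBP letters TTGCNNAA from -216. Steap4, a metalloreductase, lies on the plus strand at chr5:7960222-7960471 with the same letters from -87. Ltf, the iron-binding milk protein lactoferrin, lies on the plus strand at chr9:111019042-111019291 with them, on the opposite strand, from -75. Trim30a, an interferon-induced RING protein, lies on the minus strand at chr7:104465194-104465443 and holds the interferon-stimulated response element letters GAAANNGAA, on the opposite strand, from -35. Oas1g, of the oligoadenylate synthetases that sense double-stranded RNA, lies on the minus strand at chr5:120887614-120887863 and holds 2 overlapping matches of the same letters. Cdc6, which loads the replicative helicase, lies on the plus strand at chr11:98907901-98908150 and holds the E2F letters TTTCCCGC, on the opposite strand, from -138. The annotated range of the Cdc6 gene, chr11:98907709-98923942, begins ahead of these bases. They therefore lie inside the gene and precede only a start further downstream.
Egln3: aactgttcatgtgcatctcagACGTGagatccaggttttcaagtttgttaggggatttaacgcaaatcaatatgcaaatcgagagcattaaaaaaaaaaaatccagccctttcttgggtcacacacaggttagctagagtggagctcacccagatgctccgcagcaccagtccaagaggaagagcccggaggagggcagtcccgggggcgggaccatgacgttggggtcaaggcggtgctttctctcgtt
Lcn2: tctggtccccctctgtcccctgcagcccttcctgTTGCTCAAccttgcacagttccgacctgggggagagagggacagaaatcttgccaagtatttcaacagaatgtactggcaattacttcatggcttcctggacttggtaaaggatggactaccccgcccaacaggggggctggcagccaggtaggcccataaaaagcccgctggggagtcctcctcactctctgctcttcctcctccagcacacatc
Steap4: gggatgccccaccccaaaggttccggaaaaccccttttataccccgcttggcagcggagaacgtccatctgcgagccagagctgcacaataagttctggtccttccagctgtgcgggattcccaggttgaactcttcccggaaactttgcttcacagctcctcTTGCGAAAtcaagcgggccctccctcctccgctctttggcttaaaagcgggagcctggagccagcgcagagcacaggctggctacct
Ltf: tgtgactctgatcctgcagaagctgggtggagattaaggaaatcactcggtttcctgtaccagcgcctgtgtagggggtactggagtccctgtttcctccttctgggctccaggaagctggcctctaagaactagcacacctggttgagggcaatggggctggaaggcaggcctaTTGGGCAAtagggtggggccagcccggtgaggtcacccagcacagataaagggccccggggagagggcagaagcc
Trim30a: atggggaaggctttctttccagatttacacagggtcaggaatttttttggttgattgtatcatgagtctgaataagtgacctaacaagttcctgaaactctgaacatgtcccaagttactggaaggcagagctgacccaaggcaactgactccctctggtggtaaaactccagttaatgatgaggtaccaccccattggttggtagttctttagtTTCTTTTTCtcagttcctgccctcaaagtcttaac
Oas1g: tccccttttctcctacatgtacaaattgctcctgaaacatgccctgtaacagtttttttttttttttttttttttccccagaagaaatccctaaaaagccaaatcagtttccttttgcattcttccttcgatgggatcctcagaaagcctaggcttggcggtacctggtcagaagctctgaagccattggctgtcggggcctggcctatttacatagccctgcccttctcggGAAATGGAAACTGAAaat
Cdc6: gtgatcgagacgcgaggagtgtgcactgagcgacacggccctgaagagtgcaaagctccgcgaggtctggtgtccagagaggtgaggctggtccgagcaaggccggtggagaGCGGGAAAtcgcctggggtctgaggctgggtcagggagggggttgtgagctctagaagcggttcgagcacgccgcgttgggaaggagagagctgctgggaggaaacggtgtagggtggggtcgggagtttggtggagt

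Positions count back from the base before the transcription start, and a match is a description of letters, not a site. The hypoxia core stood in 16.6% of 27025 RefSeq promoters of this length and in 7 of the 14 hypoxia genes called higher that had an entry. The C/EBP letters stood in 9.55% of all promoters and in 5 of 9 called acute-phase genes. The kappa-B letters GGGANTTTC, in 0.977% of all, stood in none of those 9 and in 1 of 4 called NF-kB genes. AP-1 letters (TGANTCA, 6.87% of all) stood in 0 of 6 called immediate early genes, C/EBP-ATF letters (TGATGNAA, 3.53%) in 1 of 5 called ATF4 targets, and those of the endoplasmic reticulum stress element (CCACG, 28.2%) in 0 of 2 called genes of the unfolded protein response. For the interferon letters the values were 7.16% of all and 15 of 22 called members, and for E2F 0.929% of all and 2 of 30 called replication genes. The sterol regulatory element letters TCACNCCAC stood in 1.04% of all promoters and in 1 of the 13 called cholesterol genes with an entry. Over all list members with an entry, called or not, the hypoxia core stood in 13 of 27 and the C/EBP letters in 8 of 13. The interferon letters stood in 20 of 43, the E2F letters in 3 of 34 and the sterol letters in 1 of 17. Kappa-B letters stood in 0 of 13 acute-phase and 1 of 19 NF-kB genes, AP-1 letters in 1 of 20, C/EBP-ATF letters in 6 of 25 and CCACG in 14 of 20. A link of the letters to the calls was not tested. Nos2, Lbp, Stard4, Gbp4, Mx1 and Gbp6 had no entry in the promoter table.

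Replicate 1 was the shallowest of the 6 libraries at 29877087 reads, against 38512988 and 39106969 in replicates 2 and 3 and 39304974 to 46683735 in the parental libraries. It nevertheless had a read for more genes, 17273, than replicate 2 with 16304 or replicate 3 with 16421. A gene is called higher where its value, as log2(value + 1), was at least 2-fold above each of replicates 2 and 3, and lower where it was at least 2-fold below each. By that rule 2030 genes, 14.7% of those tested, were higher in replicate 1 and 1186, or 8.58%, were lower. Replicates 2 and 3 were 2-fold apart from each other at 220 genes, 1.59%. Since replicate 1 was chosen for standing apart, nothing is read from these shares. Of the called genes, 62 higher and 3 lower ones had at most 3 reads in each BrM library, and without such genes the counts were 1968 and 1183. The shares serve as a rough background for each group of genes below. The higher share depended on level, at 30.9% for genes averaging 10 to 100 over the BrM libraries and 5.10% above 10000. A list of low or of abundant genes therefore has a different background from 14.7%, and the list counts were not matched for level. Values are scaled read counts, those given as one value against a pair are of replicate 1 against replicates 2 and 3, and folds are on the log2(value + 1) scale, which understates differences of low genes.

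The differences from replicate 2 and from replicate 3 had one sign at 93.2% of the tested genes, and 2 genes were 2-fold apart in opposite directions. Another 832 genes were 2-fold apart from one of the other libraries and not in that direction from both. For called genes the 2 differences lay a median 0.11 apart on the log2 scale. The median size of the difference was 0.53 for replicate 1 against the mean of the others, and 0.09 between replicates 2 and 3. At 4-fold, 741 genes were higher, 229 lower and 29 apart between replicates 2 and 3. At 16-fold the counts were 101, 7 and 0, so the largest differences were mostly higher values in replicate 1.

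**Figure D1:**
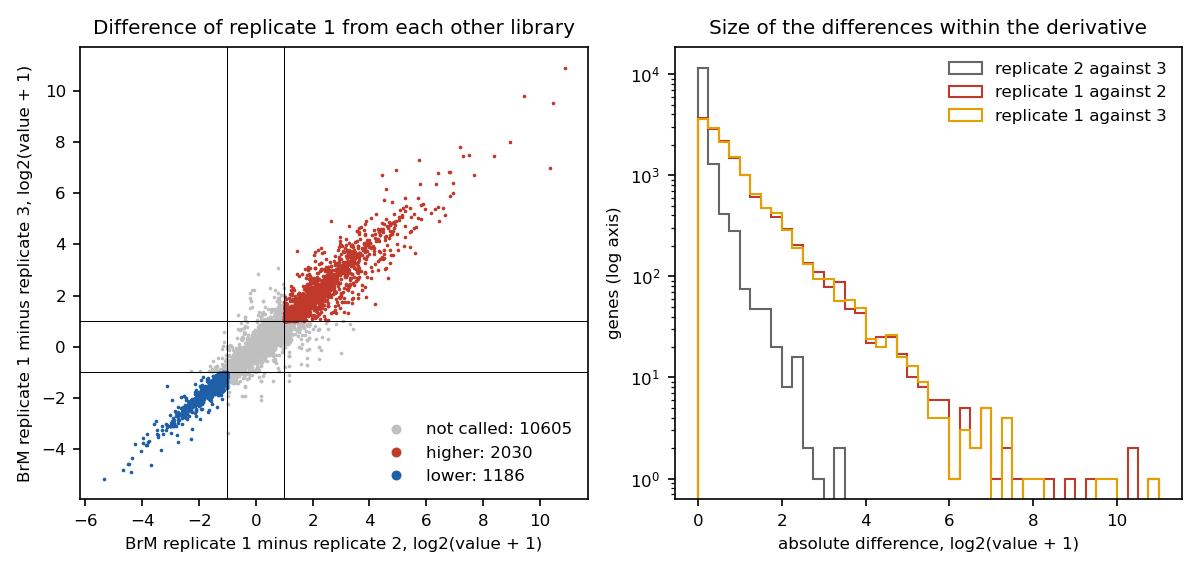
Left, the log2(value + 1) difference of BrM replicate 1 from replicate 2 (x) and from replicate 3 (y), 1 point per tested gene, with lines at 2-fold; 2030 genes lie higher and 1186 lower than both. Right, the number of genes (log axis) by size of difference for the 3 pairs of BrM libraries; the pair of replicates 2 and 3 ends near a log2 difference of 3.5.

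Replicates 2 and 3 were close to one another and still differed by more than counting noise. With at least 20 reads in the pair, 32.4% of genes were apart by more than the 95% counting limits, where counting alone would give 5%, and the share was 82.0% for replicate 1 against either. Pairs of parental libraries were 2-fold apart at 976 to 1683 genes and beyond counting limits at 65.4% to 72.2%. Replicate 1 was 2-fold apart from replicates 2 and 3 at 3614 and 3654 genes and from the parental libraries at 4427 to 4835. Replicates 2 and 3 were in turn 3688 to 4350 genes from the parental ones.

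Genes that separate the derivative from the parental line in replicates 2 and 3, chosen after their values were seen, are given for comparison with the label of replicate 1. Of 15 Hoxa and Hoxc genes, which give cells positional identity, the median difference of replicate 1 from the others was 0.05, while that of the parental libraries from replicates 2 and 3 was -4.32. Among them 1 was higher and 2 were lower in replicate 1, with Hoxa10 at 63.5 against 183 and 176 and Hoxc5 at 31.7 against 68.9 and 69.8. Hoxa7 was 236 in replicate 1, 246 in replicate 2 and 226 in replicate 3, and 0, 1.65 and 0 in the parental libraries. Vim, the mesenchymal intermediate filament vimentin, was 2704 against 2069 and 1966 in replicates 2 and 3 and 25962, 50883 and 35608 in the parental line. Genes of chromosome 12 had a parental median -1.02 from replicates 2 and 3, against 0.00 for replicate 1. Erbb2 was 70490.2 in replicate 1, 41468 in replicate 2 and 47069 in replicate 3, less than 2-fold above both, and 42315, 30959 and 42628 in the parental line.

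Lists of epithelial genes were compared between the replicates as well. Luminal epithelial genes had 5 of 26 higher, 1 of them on at most 3 reads, and 1 lower, and basal genes 5 of 16 higher and 2 lower, with medians of 0.23 and 0.20. Ehf, an epithelium-specific ETS factor, was 2965 against 206 and 201, and Krt17, a keratin of basal and stressed epithelium, 50.0 against 12.4 and 7.45. In replicate 1 both lay below the parental line, at 22017, 20320 and 16943 for Ehf and 1370, 1301 and 702 for Krt17. Krt6a, a keratin of activated epithelium, was lower at 13.4 against 320.4 and 348. Keratins lay on both sides, with 5 of 16 higher, Krt84 and Krt20 furthest, and 2 lower.

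Genes of cholesterol synthesis and uptake were lower in replicate 1. Of 25 tested members, 21 were lower in replicate 1 and none higher, with a median log2 difference of -2.01 against 0.04 over all genes tested, and all 25 lay below 0. Idi1, the isomerase that makes the isoprenoid unit dimethylallyl diphosphate, had a scaled count of 491 in replicate 1, 6846 in replicate 2 and 6421 in replicate 3, 13.5-fold lower. Its parental values were 5592, 7699 and 9832, so replicate 1 was the lowest of the 6 libraries. Cyp51, the lanosterol demethylase, was 768 against 10404 and 9972, or 13.2-fold lower, and Stard4, a cholesterol carrier, was 212 against 1890.0 and 2018. Srebf2, the factor of the sterol branch, was 3385 against 8504 and 9329.9. The members that were not called were Hsd17b7, Dhcr7, Sc5d and Tm7sf2.

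Fatty acid genes were divided. Of 37 tested, 12 were lower and 3 higher, with a median of 0.02. The lower ones included the desaturases: Fads2 was 248 against 3631 and 3568, 14.5-fold lower, Scd1 was 731 against 7914 and 8472, 11.2-fold lower, and Fads1 was 107 against 1213 and 1157. The elongase Elovl6 was 551 against 3257 and 3656 and the synthase Fasn 9103 against 31662 and 35394. The 3 higher ones were Acacb, Cpt1a and Lpl, which regulate fatty acid entry into mitochondria or its uptake from lipoproteins. Cpt1a, the carnitine transferase of mitochondrial entry, was 2797 against 686 and 813.

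Genes of the cell cycle were lower as well. Of 44 mitosis genes 42 were lower and none higher, with a median of -1.96. Of 41 replication genes 35 were lower and none higher, with a median of -1.61. All members of both lists lay below 0. Ccna2, cyclin A2, which drives S phase and entry into mitosis, was 896 in replicate 1, 5970.3 in replicate 2 and 5783 in replicate 3, and 3999, 7572 and 6875 in the parental line. Mybl2, the B-Myb factor of mitotic genes, was 297 against 1864 and 1902, 6.33-fold lower. Kif20a, a kinesin of cytokinesis, was 1147 against 6527 and 7008, and Cdc20, which activates the anaphase ubiquitin ligase, 574 against 3293 and 3145. Mki67, the proliferation antigen Ki-67, was 2248 against 11272 and 12831. For these 5 genes the values of replicates 2 and 3 lay close together and replicate 1 was below all 5 other libraries.

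Among replication genes, Cdc6, whose searched bases are shown above, was 283 in replicate 1, 2228 in replicate 2 and 2217 in replicate 3, 7.82-fold lower, and 1254, 1468 and 1907 in the parental line. Mcm5, a subunit of the replicative helicase, was 1865 against 10488 and 10214, and Rrm2, the small subunit of ribonucleotide reductase, 2007 against 10481 and 10210.0. Orc1, of the origin recognition complex, was 98.9 against 509 and 489.9. Dna2, a nuclease and helicase of replication and repair, was among the furthest down at 31.7 against 742 and 789, 23.4-fold lower, and Myb, the c-Myb factor, at 15.9 against 345 and 346. In G1, 5 of 21 genes were lower and 2 higher. Ccne2, cyclin E2, was 40.3 against 252 and 269, and Rbl1, the pocket protein p107, 520.0 against 1837 and 1986. Cdkn1a, the kinase inhibitor p21, was higher at 17147 in replicate 1, 4514 in replicate 2 and 4583 in replicate 3, 3.77-fold, against 11726, 9459 and 8748 in the parental libraries.

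**Figure D2:**
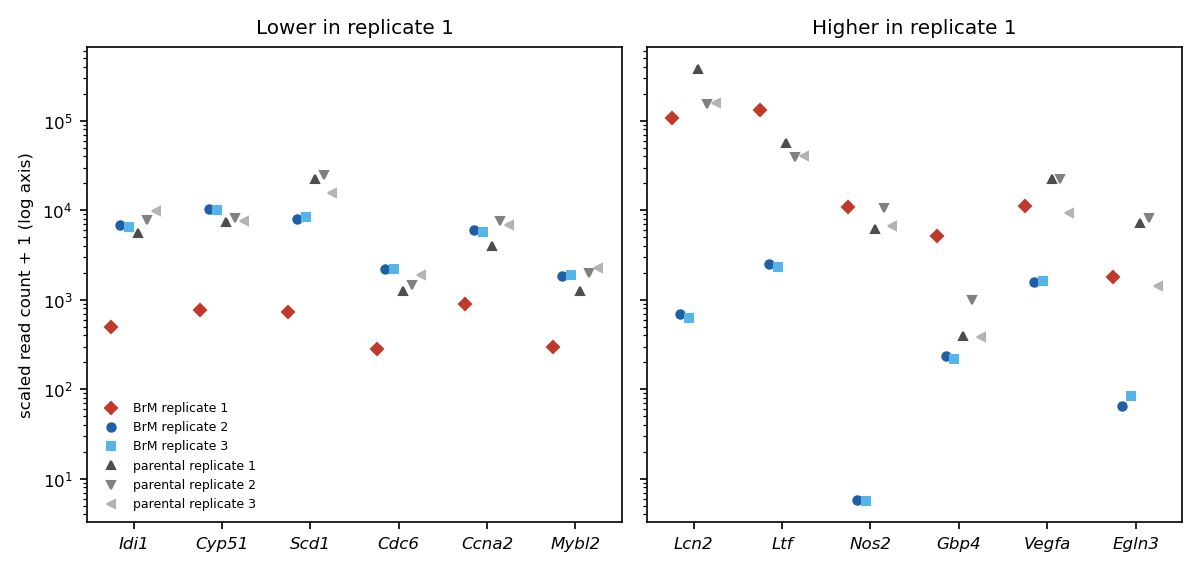
Scaled read counts plus 1 (log axis) of 12 genes in each of the 6 libraries, 1 point per library. In the left panel replicate 1 (red diamonds) is the lowest of the 6 libraries for each gene, for example 491 for Idi1. In the right panel it is above BrM replicates 2 and 3 for each gene and for Ltf, Nos2 and Gbp4 above all 5 other libraries.

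p53 targets had 7 of 24 higher and none lower, with a median of 0.52. Fas, the death receptor, was 1226 against 51.6 and 61.5, 21.4-fold higher, and Trp53inp1, a stress-induced nuclear protein, 4776 against 1176 and 1148. Ypel genes, small zinc-binding proteins, were higher for 5 of 5 tested, a family chosen after its values were seen. Of 16 Bcl2 family genes 5 were higher and none lower. Among its BH3-only members, which promote cell death, Bmf was 575 against 58.3 and 49.4, Bik was 172 against 11.5 and 9.31 and Bcl2l11 (Bim) was 4182 against 1091 and 1173. Replication-dependent histones had 3 of 7 tested higher, and Hist1h1c, a linker histone, was 776 against 70.8 and 83.8. These transcripts largely lack a poly(A) tail, so a polyadenylated library samples them poorly, and 7 of the 52 listed passed the filter.

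The acute-phase and epithelial defence genes included the gene with the largest difference of all, Nos2. Of 17 tested, 12 were higher and none lower, with a median of 1.80. Leaving out 5 members with at most 3 reads in each BrM library, 10 of 12 were higher with a median of 5.25. A member stays in where replicate 1 alone has more reads than that, so the larger median partly follows from the choice. Lcn2 was 108384 in replicate 1, 691 in replicate 2 and 624 in replicate 3, 165-fold higher, against 383422, 152314 and 158860 in the parental line. Ltf was 130970 in replicate 1, 2480.1 in replicate 2 and 2316 in replicate 3, 54.6-fold higher, and above the parental 56992, 39111 and 40008. Nos2, the inducible nitric oxide synthase, was 10826 in replicate 1, 4.78 in replicate 2 and 4.66 in replicate 3, which is 5 reads in each of the latter, with parental values of 6129, 10542 and 6606. Lbp, which binds bacterial lipopolysaccharide, was 1313 in replicate 1, 0 in replicate 2 and 9.31 in replicate 3. Pigr, the receptor that carries IgA across epithelium, was 977 against 0.956 and 2.79, and Steap4 was 277 against 1.91 and 5.59. Saa3, the serum amyloid A made outside the liver, was 25.6 against 0 and 0. Saa1, Saa2, Hp, Ptx3 and Wfdc2 of the same list were not called. Replicate 1 was thus between the other BrM libraries and the parental ones at Lcn2, Lbp and Steap4, within the parental range at Pigr and above it at Nos2 and Ltf.

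Among the 12 genes with the largest differences, Sftpd, surfactant protein D, was 1406 in replicate 1, 0 in replicate 2 and 0.931 in replicate 3, a read ratio of 2980 with an exact 95% counting interval of 534 to 117810, since replicates 2 and 3 held 1 read together. Chil1, a chitinase-like lectin, was 1182 against 4.78 and 10.2, and Alpl, an alkaline phosphatase, 3367 against 3.83 and 2.79. Slc39a4, a zinc importer, was 6595 against 76.5 and 58.7, 97.0-fold higher, in a list of metal handling genes with 6 of 26 higher and 2 lower. S100 proteins had 2 of 14 higher and 1 lower, with a median of -0.31. The higher ones, S100a8 and S100a9, the subunits of calprotectin, were 352 against 14.3 and 5.59 and 156 against 1.91 and 0, and the lower one, S100a4, was 1956 against 5338 and 4679. Serpina genes were higher for 6 of 6 tested, chosen after their values were seen, and Serpina3n, an acute-phase protease inhibitor, was 216 against 0.956 and 0.931, against 60.0, 2.47 and 6.61 in the parental line. The Serpina3 genes, like the Oas1 and Gbp genes below, are neighbouring near-copies among which counting can divide reads, so single members are uncertain.

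Complement and coagulation had 8 of 17 higher and none lower, with a median of 1.41. C3, the central complement protein, was 27674 against 3767 and 3948, and C1s1, a protease of the first component, 1252 against 20.1 and 25.1. In replicate 1 both lay below the parental line, at 187894, 93623 and 94832 for C3 and 7131, 3355 and 4754 for C1s1. Of 17 chemokines 9 were higher and 1 lower, with a median of 1.60. The neutrophil chemokines Cxcl1 and Cxcl5 were 19042 against 1384 and 1386 and 32959 against 1349 and 1238. Parental values were 44644, 17879 and 64250 for Cxcl1 and 194439, 68140 and 167612 for Cxcl5. Replicate 1 was within the parental range at Cxcl1 and below it at Cxcl5. Ccl20, which draws CCR6-bearing cells, was 298 against 20.1 and 13.04, and Ccl2, which draws monocytes, had 25.6 against 0 and 0, at least 18.1-fold higher against a floor of 3 reads over replicates 2 and 3.

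Interleukin and colony-stimulating ligands had 14 of 26 higher, 1 of them on at most 3 reads, and 2 lower. Csf2, which encodes GM-CSF, was 6509 in replicate 1, 304 in replicate 2 and 271 in replicate 3, 22.6-fold higher, with lower parental values of 668, 205 and 188. Il1f6, interleukin 36 alpha, was 334 against 0 and 0.931, a read ratio of 709 (95% counting interval 126 to 28098), and Tnf was 133 against 4.78 and 6.52. The intracellular pathway genes lay nearer to the shares over all genes tested. Of 23 NF-kB subunits, inhibitors and feedback genes 5 were higher and 2 lower, with a median of 0.13. Nfkbiz, a nuclear co-regulator, was 12446 against 2463 and 2414, and Nfkbia, the inhibitor I-kappa-B alpha, 3542 against 1202 and 1216. Among 26 JAK, STAT and SOCS genes 4 were higher and none lower, with a median of 0.03. The higher share was 15.4%, close to the 14.7% over all genes tested. Socs3, the feedback inhibitor, was 1388 against 452 and 446.

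Some leukocyte marker transcripts were also higher in replicate 1. The summed scaled count of the markers was 3249, against 514 and 517 in replicates 2 and 3 and 308 to 743 in the parental libraries. Of the 7 tested 3 were higher and 4 were not called. Those not called were Csf1r at 319 against 254 and 230, Cx3cr1 at 12.2 against 9.56 and 11.2, Fcer1g at 13.4 against 6.70 and 11.2 and Cd8a at 18.3 against 2.87 and 13.97. Cd68, a lysosomal protein, made most of the sum at 2669.6 against 209 and 211, Cd74, the invariant chain of class II MHC, was 150.1 against 14.3 and 22.4, and Aif1, a macrophage calcium-binding protein, 42.7 against 1.91 and 5.59. Ptprc, which encodes CD45, was 4.88 against 1.91 and 4.66, and Cd3g, Ms4a1 and Nkg7 had no read in any BrM library. Their part in the defence results was not tested.

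Interferon-stimulated genes had 35 of 59 higher and 1 lower, with a median of 1.52. Gbp4, an interferon-induced GTPase, was 5205 in replicate 1, 234 in replicate 2 and 217 in replicate 3, 22.98-fold higher and above the parental 393, 1002 and 383. Trim30a was 679.9 in replicate 1, 39.2 in replicate 2 and 31.7 in replicate 3, and Mx1, an antiviral GTPase, 94.0 against 7.65 and 6.52. Irf7, which amplifies type I interferon, was 533 against 46.9 and 54.9, and Oas1g, shown above, 96.4 against 12.4 and 13.97. Irf8 was the lower one. By family, Oas genes were higher for 6 of 6 and Gbp genes for 9 of 11, both chosen after their values were seen. Ifi genes were higher for 6 of 10, Irf genes for 2 of 11 with 1 lower, and Slfn genes for 1 of 5 with 2 lower. Of 21 genes of antigen processing and class I MHC, 4 were higher and 2 lower. The transporters of peptides into the endoplasmic reticulum, Tap1 and Tap2, were 1291 against 304 and 286 and 1914 against 633 and 601.

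Hypoxia-response genes had 18 of 35 higher and none lower, with a median of 1.15. The median gene was Stc1, a single read in replicate 1 and none in the others, and without it 17 of 34 were higher with a median of 1.17. Egln3 was 1783 in replicate 1, 64.1 in replicate 2 and 82.9 in replicate 3, 24.1-fold higher, and 7264, 8114 and 1417 in the parental line. Adm, the vasodilator peptide adrenomedullin, was 447 in replicate 1, 26.8 in replicate 2 and 26.1 in replicate 3. Vegfa, the angiogenic growth factor, was 11152 in replicate 1, 1588 in replicate 2 and 1603 in replicate 3, and Car12, a carbonic anhydrase, 109.9 against 12.4 and 11.2. Hif1a itself, Slc2a1 and Car9 were not called, with Car9 at 329.6 against 434 and 447. Glycolysis had 7 of 21 higher and 1 lower, with Eno2, an enolase, at 2054 against 223 and 227 and Pfkp, a phosphofructokinase, at 2605 against 834 and 887. Nuclear genes of oxidative phosphorylation had 1 of 74 higher and 1 lower, with a median of -0.05, and the cytosolic ribosomal proteins 0 of 81 higher and 1 lower, with a median of 0.26. The lower one, Rpl30, had few reads, and such genes have many processed copies.

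**Figure D3:**
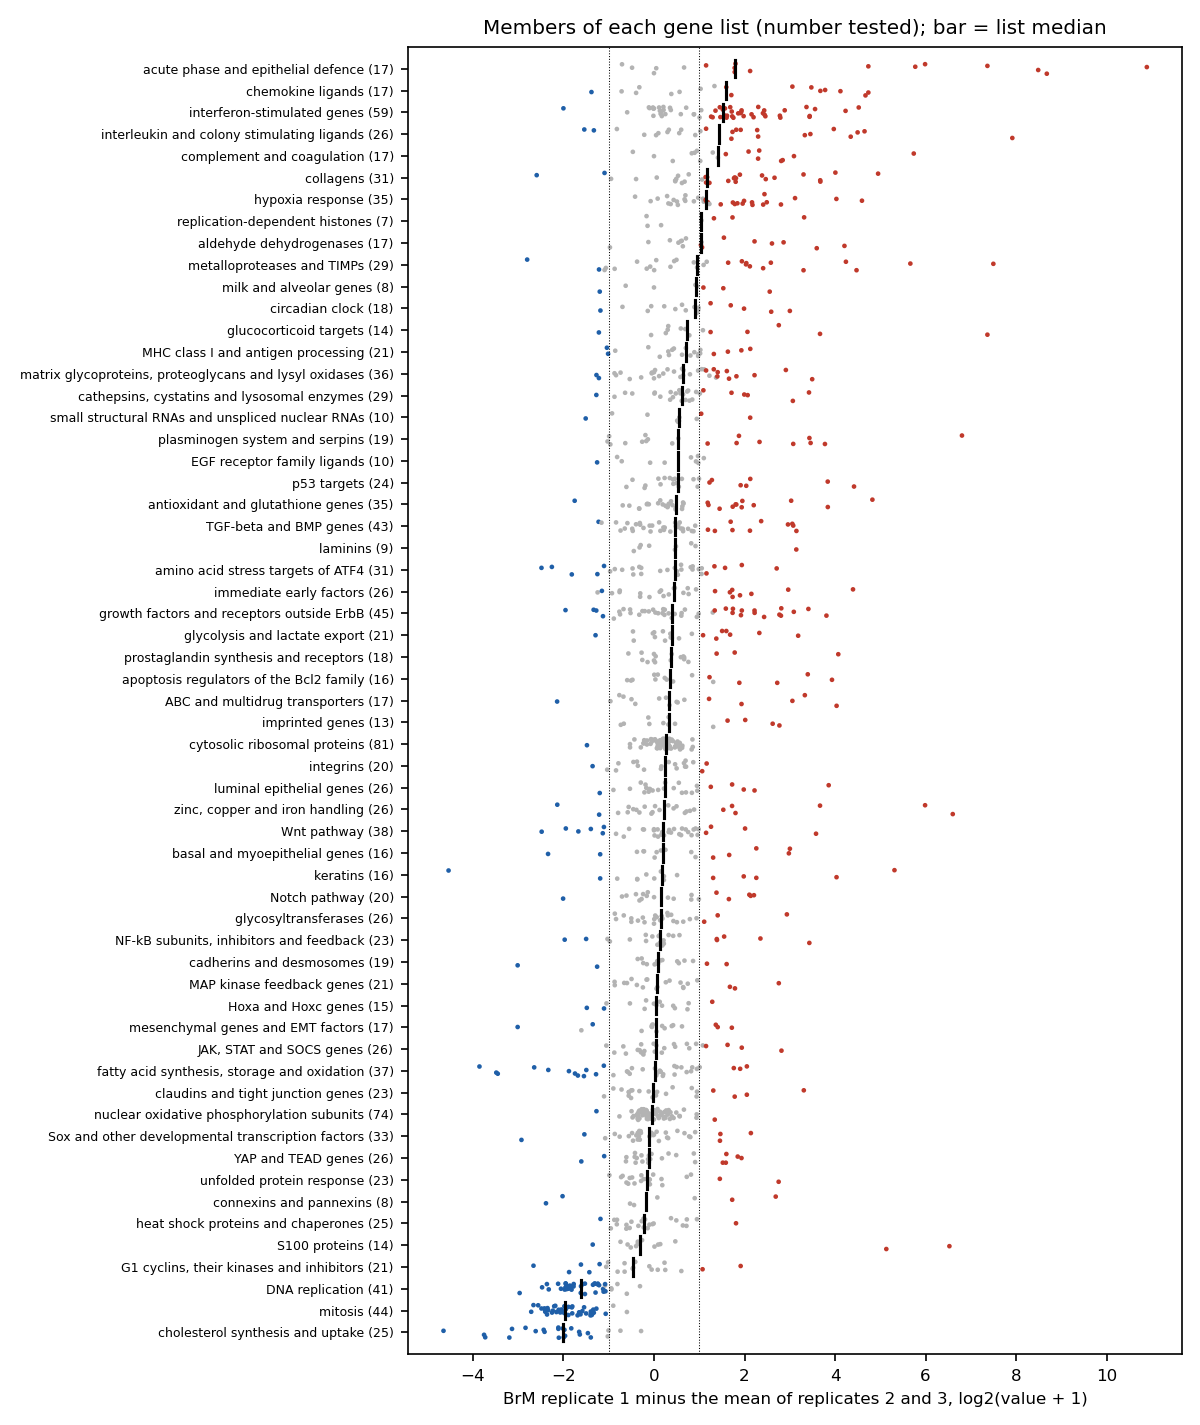
Each point is a tested gene of a list, placed by its log2(value + 1) difference of BrM replicate 1 from the mean of replicates 2 and 3, with 2-fold dotted lines, the list median as a bar and called genes in red (higher) or blue (lower). Cholesterol, mitosis and replication genes lie at the bottom with medians of -2.01, -1.96 and -1.61, and acute-phase genes at the top with 1.80.

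Matrix and protease lists differed in their counts. Of 31 collagens 18 were higher and 2 lower, with a median of 1.17, and 2 of the 18 rested on at most 3 reads. Col2a1, of cartilage fibrils, was 125 against 1.91 and 4.66, and Col1a1, of the main fibrillar collagen, 437 against 42.1 and 44.7. Laminins had 1 of 9 higher, integrins 2 of 20 higher and 1 lower, and cathepsins and lysosomal enzymes 6 of 29 higher and 1 lower. Mesenchymal genes had 3 of 17 higher and 2 lower, among the higher Fn1, fibronectin, at 124683 against 44241 and 49918. Fn1 was 482544, 418537 and 368946 in the parental line, above replicate 1. Metalloproteases and their inhibitors had 12 of 29 higher and 2 lower. Mmp13, a collagenase, was 3940.3 in replicate 1, 25.8 in replicate 2 and 16.8 in replicate 3, 181-fold higher, and the stromelysin Mmp3 was 3796 against 173 and 167, both above their parental values of 672, 54.4 and 517 and 349, 46.9 and 379. The summed fibroblast and pericyte markers were 1140 in replicate 1, 233 and 243 in replicates 2 and 3 and 4698 to 16137 in the parental libraries, with 4 of 7 tested higher, 1 of these on at most 3 reads, while Dcn, Lum and Thy1 had no BrM read. Summed endothelial markers were 2350 against 362 and 344, with 3 of 4 tested higher. Ly6c1 made most of the sum at 1976 against 275 and 243, with Eng at 303 against 58.3 and 62.4 and Vwf at 28.1 against 1.91 and 3.73. The remaining tested marker, Esam, was 15.9 against 19.1 and 30.7. Kdr and Emcn had no read in replicate 1, and Cldn5 and Erg had no BrM read. Brain markers summed to 2877 against 2390 and 2394, most of it Mbp at 2109 against 2055 and 2089.9, with 3 of 7 higher: Aldoc at 419.9 against 136 and 125, Slc1a2 at 80.6 against 17.2 and 22.4 and Gad1 at 25.6 against 7.65 and 7.45. Aqp4, Mog and Olig2 had no BrM read. Their part in these results was not tested, and fewer cells of a type and less RNA per cell cannot be told apart in bulk samples.

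Growth factors and receptors outside the ErbB family had 15 of 45 higher and 4 lower. Fgf7, keratinocyte growth factor, was 183 against 10.5 and 13.97, and Pgf, placental growth factor, 2833 against 259 and 272. The 3 tested ErbB receptors were not called, and 1 of 10 EGF-family ligands, Epgn, was lower at 157 against 377 and 378. TGF-beta and BMP genes had 10 of 43 higher and 1 lower, and Ltbp2, a latent TGF-beta binding protein, was 25118 against 2941 and 3101. Immediate early factors had 8 of 26 higher and 1 lower. Fos was 7308 in replicate 1, 364 in replicate 2 and 329 in replicate 3, 21.1-fold higher, and Egr1 was 10495 against 1403 and 1285. Both had wide parental ranges, with Fos at 13338, 20276 and 3210.3.

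Lists of detoxification and stress genes differed in their counts. Aldehyde dehydrogenases had 8 of 17 higher, 1 of them on at most 3 reads, and none lower, with a median of 1.04. Aldh3a1, which oxidises aromatic and lipid aldehydes, was 77544 in replicate 1, 4255 in replicate 2 and 4139.7 in replicate 3, 18.5-fold higher and above the parental 17893, 24771 and 36345. Antioxidant and glutathione genes had 12 of 35 higher and 1 lower, with Gstt1, a glutathione transferase, at 2484 against 83.2 and 90.3. The circadian clock had 5 of 18 higher and 1 lower, and Dbp, a clock output factor, was 426 against 55.5 and 49.4. In the unfolded protein response 2 of 23 were higher, Ppp1r15a and Ddit3, and none lower. ATF4 amino acid targets were split at 5 and 5 of 31. In the list of metal handling genes, Tfrc, the transferrin receptor, was lower at 3768 against 16592 and 16539. Heat shock proteins and chaperones had 1 of 25 higher, Hspa2 at 1083 against 316 and 299.9, and 1 lower, the mitochondrial chaperonin Hspd1 at 21342 against 50073 and 46836.

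**Figure D4:**
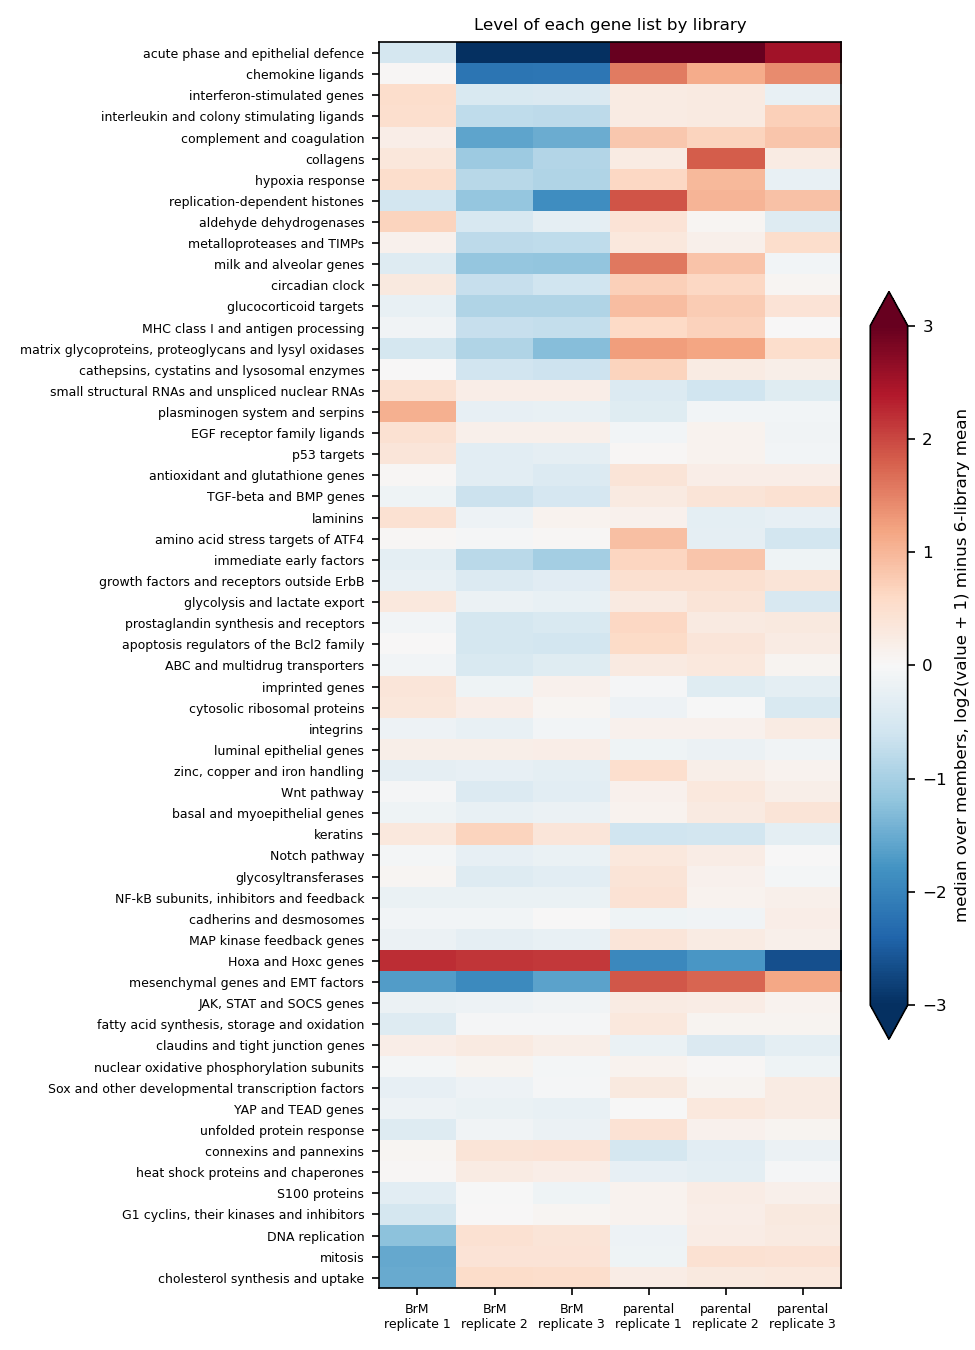
Each cell is the median over a list's tested genes of log2(value + 1) minus the gene's mean over the 6 libraries, with the colour clipped at 3 either way. BrM replicate 1 is the lowest column for cholesterol (-1.52), mitosis (-1.54) and DNA replication (-1.23), and lies between the other BrM libraries and the parental ones for acute-phase genes (-0.52 against -3.91 and -4.08).

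The size of the counts and features of the transcripts moved with the calls. Of genes averaging 10 to 100 over the BrM libraries, 30.9% were higher, against 5.10% of those above 10000, while the lower share was 8.42% and 6.37%. Counts of higher genes in the lists above depend in part on how abundant their members are, and this part was not tested. With genes split into 4 equal bins by GC content of the transcript, the share of higher genes went from 10.0% in the lowest bin to 19.9% in the highest and that of lower genes from 10.5% to 6.04%. By transcript length the higher share went from 18.2% in the shortest bin to 10.4% in the longest. When each of 10 equal bins by GC content was centred on its own median, the list medians were -2.22 for cholesterol, -1.89 for mitosis, -1.62 for replication, 1.90 for the acute phase, 1.51 for interferon genes and 1.22 for hypoxia. Those of the collagens moved from 1.17 to 0.91. Length centring gave -2.13, -1.95, -1.66, 1.81, 1.40 and 1.15 for the first 6. Median differences by chromosome ran from -0.16 on chromosome 13 to 0.20 on chromosome 15.

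**Figure D5:**
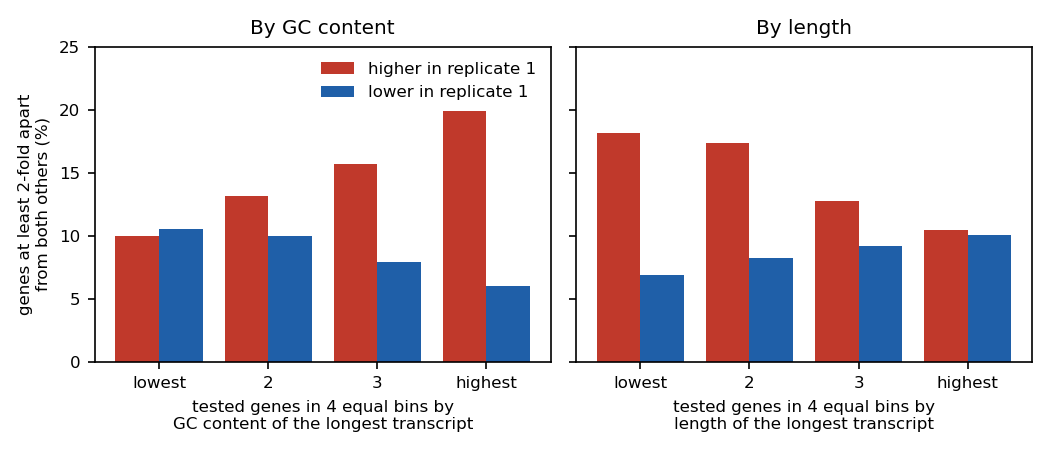
Percent of tested genes at least 2-fold higher (red) or lower (blue) in BrM replicate 1 than in both other libraries, in 4 equal bins by GC content (left) and by length (right) of the transcript. The higher share climbs from 10.0% to 19.9% with GC content and drops from 18.2% to 10.4% with length.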

How the data were processed

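Polyadenylated RNA of cultured MMTV-ErbB2 cells, 3 BrM and 3 parental libraries, was sequenced on a HiSeq instrument, per the labels. The deposited signal values are normalised read counts per gene made by the authors. The submitters' processing notes name STAR and HTSeq, and the GRCh38 and GRCm38 builds, with no version, and neither the strand setting nor the tool that scaled the counts is given in the sources used here. In each library 100% of values above 0 were whole multiples of 1 read within 0.01 read, so reads were recovered by division. The table listed 24062 genes, 4879 of them at 0 throughout, and 27 symbols turned into dates (22 tested), which were counted and not named.

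Differences were taken on log2(value + 1) for the 13821 genes averaging at least 10 over the 6 libraries. At the edge of that filter, Elovl4 averaged 10.018, and was kept, and 5730405O15Rik averaged 9.99931, and was left out. A gene was called where replicate 1 was at least 2-fold above, or below, each of replicates 2 and 3. There is no test, since replicate 1 was chosen by its values. The members, the 66 gene lists and the rules were chosen with earlier results of these data known. Named were the 12 genes highest and the 12 lowest by mean difference among called genes averaging at least 100 over the BrM libraries, without predicted, clone or date symbols, and up to 4 called members of each list with at least 3 tested members, largest first, or the 2 most abundant where none was called. Srebf2, Fasn, Cpt1a, Mki67, Saa3, Irf7, Oas1g, Car9, Ptprc, Hoxa7 and Vim were added after their values were seen. Some genes that the rule names are not reported here.

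Read ratios carry exact 95% counting intervals, which cover counting error alone, and genes without a read have a floor of 3 reads. Positions came from RefSeq and transcripts from GENCODE vM21 (GRCm38), matching 99.6% and 99.3% of 13799 tested symbols, and GC content and length from the transcript taken per gene. Promoters came from RefSeq (GRCm38.p6). Python 3.11.15, pandas 2.3.3, NumPy 2.4.6, SciPy 1.17.1 and matplotlib 3.10.9 were used, and edgeR 4.0.16 and DESeq2 1.42.0 under R 4.3.3 for scaling factors alone. Tested on simulated data of the same 13821 genes, the rule recovered 100 of 100 genes planted 4-fold higher and 99 of 100 planted lower, with 68 other calls, 13 of them in genes averaging at least 10 over the BrM libraries. Planted genes were drawn only from those averaging at least 10 over the BrM libraries, and all genes shared the same fixed dispersion. Recovery of a 4-fold change by a 2-fold rule was therefore likely beforehand and says nothing of lower genes. Alternatives were pseudocounts of 0.5 and 5, other filters, centring, TMM, DESeq2 size factors, a 4-fold rule and leaving out libraries.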

Additional observations from a re-analysis of the deposited data

How the results depend on the processing

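The counts of 2030 higher and 1186 lower genes became 3629 higher without a filter, 1284 higher with a mean of at least 100, and 741 higher and 229 lower under a 4-fold rule. Leaving out a BrM replicate 2 or 3, or a parental library from the filter, gave 2016 to 2299 higher and 1186 to 1396 lower. Without BrM replicate 1 there is no value. The other alternatives (pseudocounts, median centring, TMM, DESeq2 size factors, and, chosen after seeing the data, a filter over the 3 BrM libraries, each parental library left out of the filter GC or length centring and leaving out genes with at most 3 reads in each BrM library) kept both counts within 1.5 times. The share of called genes that were higher was 63.1%, 59.0% under TMM and 72.4% without a filter. Sign changes were counted for the 230 called among the 232 named genes, and none was found under these alternatives. That was likely beforehand, since the 230 were chosen for lying at least 2-fold from both libraries. Under the 4-fold rule 78 of the 230 were not called. A mean of at least 100 removed 48 and the BrM filter 22, with their differences unchanged. Without a filter the histone list median went from 1.05 to -0.05, and the other list medians that changed sign under an alternative were those of the keratins, at 0.19, and of lists nearer to 0. No paired analysis was possible because 1 library was compared with 2 and no test was made. The shallower depth of replicate 1, and the 601 tested genes averaging under 10 over the BrM libraries, 232 of them called, limit what low counts show.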
